A study of Mus musculus with 4 samples.

Results

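The immediate early genes Fos, Jun, Junb, Jund, Egr1, Ier2, Nr4a1, Atf3, Klf4 and Dusp1 were followed in tissue beside pancreatic tumours of mice; the labels give the tumour line as Panc02, a mouse pancreatic ductal adenocarcinoma line. They were taken by gene symbol from the deposited count table, and all 10 symbols matched 1 of its 55401 Ensembl gene identifiers each. The study has 2 libraries from CRFR1-KO mice and 2 from wild-type (WT) mice, and all 4 come from tumour-bearing animals. CRFR1 is encoded by Crhr1 and binds corticotropin-releasing factor, a stress peptide. The series title places it in mast cells and ties it to MAPK signalling, on which immediate early genes depend. The design text calls the knockout conditional; the labels name no Cre driver, strain, age or sex, and do not say whether each library is 1 animal. P-values therefore measure how far single libraries differ, and part of that may be technical.

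Immediate early genes are switched on quickly by growth factors, stress or calcium, without new protein synthesis, largely through serum response factor with its ternary complex partners and through CREB. MAP kinases act on both routes. Fos and Jun family proteins pair through leucine zippers to form AP-1, Egr1 is a zinc finger factor, Nr4a1 is an orphan nuclear receptor, Atf3 is a stress-induced bZIP factor of the ATF family and Klf4 is a Kruppel-like zinc finger factor. Ier2 encodes a small nuclear protein. Dusp1 is not a transcription factor gene: it encodes a dual-specificity phosphatase that switches MAP kinases off. In pancreas these genes respond to secretagogues, injury and tissue handling, and their mRNAs are mostly short-lived.

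Promoters of 4 members are shown as examples. Of the motifs marked, Fos and Dusp1 carry TGACGT, Jun carries TGACATCA and CCAAT, and Junb carries CCAAT alone. The sequences are RefSeq windows on GRCm38.p6 that precede the annotated start, printed 5′ to 3′ on the gene's strand. The Fos window is chr12:85473640-85473889 on the plus strand. The Jun, Junb and Dusp1 windows, on the minus strand, are chr4:95052223-95052472, chr8:84978749-84978998 and chr17:26508520-26508722. The Dusp1 window holds 203 bases because the last 47 of its 250 lie in an annotated exon and are left off. Capitals mark TGACGT or TGACGTCA, the core of the cAMP response element bound by CREB and ATF proteins, TGACATCA, the AP-1-like element of Jun, and CCAAT.
Fos promoter: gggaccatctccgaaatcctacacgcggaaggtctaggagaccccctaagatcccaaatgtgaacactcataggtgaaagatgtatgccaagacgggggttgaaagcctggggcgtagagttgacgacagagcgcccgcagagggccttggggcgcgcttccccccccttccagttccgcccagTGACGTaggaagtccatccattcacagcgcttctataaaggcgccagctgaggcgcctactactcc
Jun promoter: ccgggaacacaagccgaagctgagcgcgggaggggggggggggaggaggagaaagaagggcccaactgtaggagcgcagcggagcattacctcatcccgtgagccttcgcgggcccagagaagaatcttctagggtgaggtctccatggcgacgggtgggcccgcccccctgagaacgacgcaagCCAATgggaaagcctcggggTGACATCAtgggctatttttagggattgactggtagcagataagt
Junb promoter: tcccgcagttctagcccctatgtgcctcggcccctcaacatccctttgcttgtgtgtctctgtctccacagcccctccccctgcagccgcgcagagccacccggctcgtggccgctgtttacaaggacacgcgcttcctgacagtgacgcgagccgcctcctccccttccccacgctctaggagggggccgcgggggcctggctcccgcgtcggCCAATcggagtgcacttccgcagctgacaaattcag
Dusp1 promoter: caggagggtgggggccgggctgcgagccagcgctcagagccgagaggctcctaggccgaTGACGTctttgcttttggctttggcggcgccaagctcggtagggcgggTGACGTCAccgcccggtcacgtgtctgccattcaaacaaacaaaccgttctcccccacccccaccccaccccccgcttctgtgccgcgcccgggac

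Of the 10 members, 8 had an entry in the promoter table, and each was searched over 250 bases on both strands. TGACGT was found in 3 of 8 (Fos, Atf3 and Dusp1), against 6.47% of 32851 promoters. The Atf3 match lies between 8 and 3 bases before the start, and the last 7 bases of that window lie in an annotated Atf3 exon. The full TGACGTCA, which contains TGACGT, was found in Dusp1 alone, against 1.55% of promoters. Jun held TGACATCA, present in 2.93% of promoters, between 45 and 38 bases before its start. Jun and Junb each held CCAAT, which stands in 33.8% of promoters. The CArG box of serum response factor (1.47% of promoters) and the AP-1 site TGAGTCA (4.46%) were in 0 of the 8 windows. This says only that these letters are not within the 250 bases before each RefSeq start. RefSeq starts can differ from GENCODE gene starts: the Jund window ends at 70697738, upstream of its GENCODE start at 70698949. Motif matches are letters, not measured binding. The motifs were chosen after the promoters were seen, and TGACATCA was searched as the element of Jun itself. The shares over all promoters are therefore a description and no test of enrichment.

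The instability of these mRNAs is commonly linked to AU-rich elements in the 3′ UTR, built on the pentamer ATTTA. In the longest GENCODE M21 3′ UTR of each gene, ATTTA was present in 9 of 10 members, against 65.6% of 21173 genes. Ier2 was the member with none. The overlapping pair ATTTATTTA was present in Fos and Dusp1, against 6.18% of genes. Dusp1 had 5.8, Nr4a1 5.52 and Fos 4.91 ATTTA per kb of 3′ UTR, against a median of 1.16 over all genes, and Klf4 at 1.02 and Ier2 at 0 lay below that median. Shown here are the 30-base stretches with the most pentamers in Fos, Jun and Dusp1, at chr12:85477100-85477129 (plus strand), chr4:95049208-95049237 and chr17:26506157-26506186 (both minus strand, GRCm38), with ATTTA in capitals.
Fos 3′ UTR site: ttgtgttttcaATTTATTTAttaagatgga
Jun 3′ UTR site: gatcATTTAtaatcataggaaagATTTAgt
Dusp1 3′ UTR site: agctggtccttATTTATTTAacacccccct

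The libraries held between 63495457 and 71203640 counts, and levels are given in CPM, the depth-scaled counts, on library sizes scaled by the trimmed mean of M values. Crhr1 had 0 counts in all 4 libraries, so the knockout could not be checked from its own gene. Acinar markers (10 digestive enzyme and acinar factor genes) summed to 311000 and 274000 CPM in CRFR1-KO 1 and 2, against 231000 and 284000 CPM in WT 1 and 2. Of 8 mast cell markers 6 were at 0 in every library, including Cma1, Mcpt4, Tpsb2 and Fcer1a. The 8 summed to 14.5 and 10.8 CPM in CRFR1-KO, against 11.8 and 13.8 CPM in WT. That sum came from Cpa3 and Kit alone and is no measure of mast cell number. Among other cell types, fibroblast and macrophage marker sums differed both between WT 1 and the rest and between the genotypes. Endothelial markers did not, at 73.8 and 77.3 CPM in CRFR1-KO, against 77.3 CPM in WT 1 and 72.0 CPM in WT 2. The 8 fibroblast markers summed to 161 and 182 CPM in CRFR1-KO, against 486 CPM in WT 1 and 230 CPM in WT 2. The 7 macrophage markers summed to 21.9 and 38.2 CPM in CRFR1-KO, against 67.2 CPM in WT 1 and 40.8 CPM in WT 2. Of the fibroblast markers 7 of 8 were lower in CRFR1-KO (median log2 fold change -0.95, 6 at an unadjusted p under 0.05 in edgeR, 0 past the adjusted threshold), and 7 of 8 without WT 1 (median -0.44). Of the macrophage markers 7 of 7 were lower (median -0.80, 2 at an unadjusted p under 0.05, 0 past the adjusted threshold), and 7 of 7 without WT 1 (median -0.43). Of all tested genes, 50.8% were lower in CRFR1-KO, and 3.15% were lower at an unadjusted p under 0.05 in edgeR. The 7 islet markers summed to 235 and 292 CPM in CRFR1-KO, against 39.9 CPM in WT 1 and 270 CPM in WT 2.

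Levels between genes were compared per kb of merged GENCODE exon. Jund was the highest member at a mean of 16.2 CPM per kb over the 4 libraries, above 96.8% of the 15131 genes tested. Ier2 followed at 5.07 CPM per kb, and neither gene's range met that of a neighbour. Jun (1.82), Junb (1.08), Klf4 (0.977), Nr4a1 (0.661) and Dusp1 (0.511 CPM per kb) came next, each with a range that overlapped the next in order. Egr1 (0.294), Atf3 (0.188) and Fos (0.0985 CPM per kb) closed the order. Egr1 lay below the range of Dusp1 and overlapped Atf3, which overlapped Fos, with Fos above 11.2% of tested genes. Fos, a classic marker of acute stimulation, thus had the lowest mean of the members, although in CRFR1-KO 1 Atf3 (0.0297 CPM per kb) lay below Fos (0.0816 CPM per kb).

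**Figure D1:**
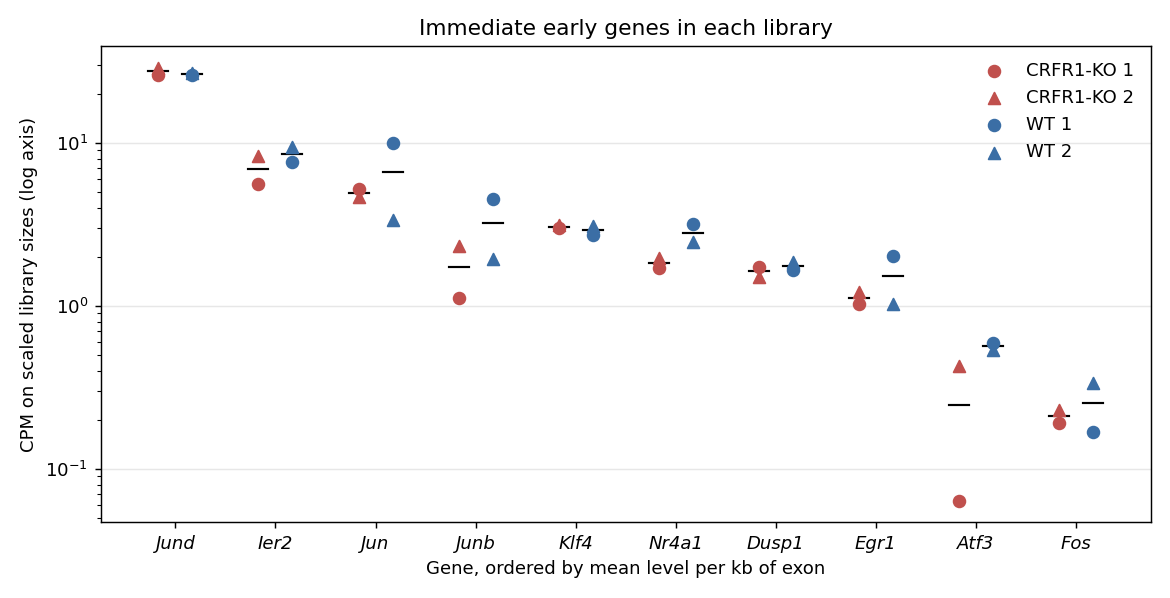
CPM on scaled library sizes (log axis) of the 10 immediate early genes in each library, with CRFR1-KO in red to the left of WT in blue; circles are replicate 1, triangles replicate 2, and black bars are group means. Jund lies between 26.1 and 28.9 CPM in every library, whereas Jun, Junb and Egr1 stand highest in WT 1, and Atf3 is lowest in CRFR1-KO 1.

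For no member did the difference between CRFR1-KO and WT pass the test. In edgeR's quasi-likelihood test 0 of the 10 members passed an adjusted p of 0.05, with 0 at an unadjusted p under 0.05, where 0.0264% and 4.86% of all tested genes did. Without WT 2, an unadjusted p under 0.05 in edgeR was reached by Jun (adjusted p = 0.163) and Junb (adjusted p = 0.443), and by 7.34% of genes. Without CRFR1-KO 2 it was reached by Atf3 (edgeR adjusted p = 1.0) and by 3.32% of genes. DESeq2 (0.375% of genes called) and limma-voom (0.0% called) called 0 members as well. All 10 passed the filter on low counts. By fold change, 8 were lower and 2 higher in CRFR1-KO, where 50.8% of all tested genes were lower, with a median log2 fold change of -0.37 against -0.01 over all genes. In 2 members, Nr4a1 and Atf3, both CRFR1-KO libraries lay below both WT libraries, a pattern shown by 16.9% of all genes. In 0 members did both lie above, against 16.6% of genes. Without WT 1 the count was 7 lower and 3 higher, where 48.9% of genes were lower, and the median was -0.17 over the members. Fibroblast and macrophage markers were lower in CRFR1-KO with and without WT 1, as given above, and their part in the members' direction was not tested. In bulk tissue, fewer cells of a type and less RNA per cell cannot be told apart.

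Among the Jun proteins, which form AP-1 with each other or with Fos, Jun and Junb followed WT 1 and Jund did not. Jun (ENSMUSG00000052684; chromosome 4, 95049034 to 95052222, GRCm38) is an intronless gene and the founding AP-1 member. It had 327 and 304 counts in CRFR1-KO, against 823 in WT 1 and 219 in WT 2. That is 4.94 ± 0.416 CPM in CRFR1-KO and 6.65 ± 4.67 CPM in WT (SD, n = 2 libraries each). WT 1 was the highest library and WT 2 the lowest, 2.98-fold apart, with both CRFR1-KO libraries between them. The log2 fold change of CRFR1-KO over WT was -0.43 (SE 0.45, 95% interval -1.5 to 0.63). Without WT 1 it was 0.56 (SE 0.27), so its sign rests on WT 1. A stretch of 232 bases is shared with the exons of the antisense gene Junos, which had 16 and 3 counts in CRFR1-KO, against 24 and 11 in WT.

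Junb (ENSMUSG00000052837; chromosome 8, 84974484 to 84978718), which often opposes Jun in growth control, had 70 and 153 counts in CRFR1-KO, against 374 in WT 1 and 126 in WT 2. Its level was 1.73 ± 0.861 CPM in CRFR1-KO and 3.22 ± 1.84 CPM in WT (SD, n = 2 each). The groups overlapped, since CRFR1-KO 2 stood above WT 2. Its log2 fold change was -0.90 (SE 0.51, 95% interval -2.09 to 0.29), and -0.15 (SE 0.49) without WT 1. Its annotated exons overlap Prdx2 on the opposite strand by 173 bases. The strand setting of the counting is not given in the sources used here, so reads in such overlaps are of uncertain origin for Junb, Jun, Jund (877 bases with Gm11175) and Dusp1 (11 bases with Ergic1).

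Jund (ENSMUSG00000071076; chromosome 8, 70698949 to 70700616) is expressed steadily in many resting tissues and responds less to stimuli than its relatives. It had 1638 and 1893 counts in CRFR1-KO, against 2155 and 1753 in WT, or 27.6 ± 1.92 CPM in CRFR1-KO and 26.4 ± 0.506 CPM in WT (SD, n = 2 each). The 4 libraries lay within 1.11-fold of each other. Jund had a log2 fold change of 0.06 (SE 0.16, 95% interval -0.32 to 0.44), the narrowest interval of the 10 members, and turned to -0.06 when library totals were used in place of scaled sizes.

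Fos (ENSMUSG00000021250; chromosome 12, 85473890 to 85477273), whose pairs with Jun are more stable than pairs of Jun alone, was near the limit of measurement. It had 12 and 15 counts in CRFR1-KO, against 14 and 22 in WT. The exact Poisson 95% intervals of the lowest and highest, 6.2 to 21.0 counts in CRFR1-KO 1 and 13.8 to 33.3 in WT 2, overlap. These intervals treat each count as an independent read, which is not settled for these data. For Fos the log2 fold change was -0.26 (SE 0.92, 95% interval -2.43 to 1.92), so a difference was not detectable at this depth. It was 0.32 without WT 2. Fosb, its close relative, had 0 counts in both CRFR1-KO libraries, against 3 and 20 in WT, and did not pass the count filter. Fosl1 was at 0 in all 4 libraries.

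Weighted per kb over Fos, Fosb, Fosl1, Fosl2, Jun, Junb and Jund, Jund made up 86.5% and 85.8% of these transcripts in CRFR1-KO 1 and 2, against 73.9% in WT 1 and 87.5% in WT 2. Jun made up 9.03% and 7.21% in CRFR1-KO, against 14.8% and 5.72% in WT. Junb made up 2.68% and 5.03% in CRFR1-KO, against 9.3% and 4.56% in WT. The Fos family genes together held 1.8% and 1.97% in CRFR1-KO, against 2.03% and 2.19% in WT. The Jund share was alike in CRFR1-KO 1, CRFR1-KO 2 and WT 2, whereas their Jun and Junb shares differed. WT 1 had the largest share of both Jun and Junb.

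**Figure D2:**
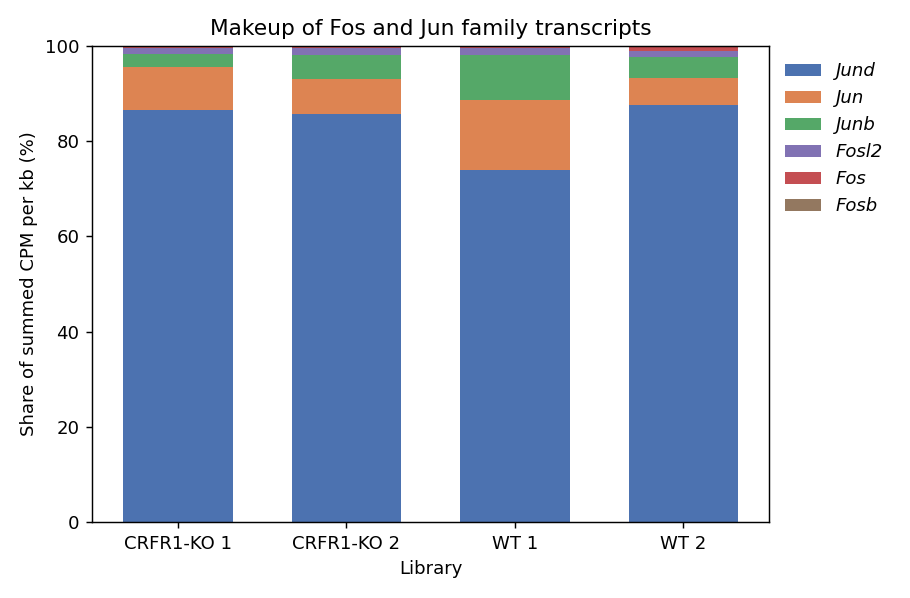
Stacked bars show each Fos or Jun family gene's share (%) of the summed CPM per kb of exon in each library, CRFR1-KO left of WT; Fosl1 is not drawn because it was at 0. Jund fills 73.9% of WT 1 and between 85.8% and 87.5% of the other 3 libraries.

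Of the zinc finger and nuclear receptor members, Egr1 was highest in WT 1, as Jun and Junb were. Egr1 (ENSMUSG00000038418; chromosome 18, 34859823 to 34864984), a direct readout of ERK and serum response factor activity in many cells, had 64 and 80 counts in CRFR1-KO, against 166 in WT 1 and 67 in WT 2. Its level was 1.12 ± 0.14 CPM in CRFR1-KO and 1.52 ± 0.696 CPM in WT (SD, n = 2 each). WT 2 and CRFR1-KO 1 were nearly equal at 1.02 CPM each, CRFR1-KO 2 stood at 1.22 CPM, and WT 1 was highest at 2.01 CPM. Egr1 had a log2 fold change of -0.44 (SE 0.45, 95% interval -1.49 to 0.61), and of 0.135 without WT 1.

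Nr4a1 (ENSMUSG00000023034; chromosome 15, 101254269 to 101274795), also known as Nur77, is an early target of growth factor and antigen receptor signalling. It had 106 and 129 counts in CRFR1-KO, against 261 and 161 in WT, or 1.83 ± 0.194 CPM in CRFR1-KO and 2.81 ± 0.493 CPM in WT (SD, n = 2 each). Both CRFR1-KO libraries lay below both WT libraries. Nr4a1 had a log2 fold change of -0.62 (SE 0.30, 95% interval -1.32 to 0.09; edgeR unadjusted p = 0.0776, adjusted p = 1.0). It stayed below 0 without each library in turn, between -0.78 and -0.42, and was -0.42 without WT 1. Its relative Nr4a2 ran the other way at 3.42 and 3.38 CPM in CRFR1-KO, against 2.85 and 2.81 CPM in WT, without passing the test (log2 fold change 0.26, SE 0.24).

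Klf4 (ENSMUSG00000003032; chromosome 4, 55527143 to 55532466), which helps set epithelial and vascular differentiation, had 187 and 205 counts in CRFR1-KO, against 225 and 201 in WT. The libraries lay within 1.15-fold, and the groups overlapped. Its log2 fold change was 0.08 (SE 0.25, 95% interval -0.51 to 0.67), and -0.03 on library totals.

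Of the stress-linked members, Atf3 (ENSMUSG00000026628; chromosome 1, 191170296 to 191218039) had 4 and 28 counts in CRFR1-KO, against 49 and 35 in WT. CRFR1-KO 1 stood far below the other 3 libraries, with an exact Poisson 95% interval of 1.09 to 10.2 counts against 18.6 to 40.5 in CRFR1-KO 2. In edgeR, Atf3 had a log2 fold change of -1.19 (SE 0.95, 95% interval -3.42 to 1.05). It was -0.40 without CRFR1-KO 1 and -3.10 without CRFR1-KO 2, so the size rests on CRFR1-KO 1. In every library counts of 4 and 8 were over-represented. In CRFR1-KO 1, 912 genes stood at 4, against 356 at 3 and 216 at 5, and 425 stood at 8, against 221 at 7 and 160 at 9. What a single deposited count stands for is therefore not settled. The Poisson intervals treat each count as an independent read and may be too narrow where it is not. They cover no variation between animals.

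Ier2 (ENSMUSG00000053560; chromosome 8, 84661331 to 84662852) is an intronless gene that lies 311631 bp from Junb. It had 350 and 540 counts in CRFR1-KO, against 629 and 616 in WT, or 6.92 ± 1.87 CPM in CRFR1-KO and 8.51 ± 1.27 CPM in WT (SD, n = 2 each). CRFR1-KO 1 was the lowest library, and CRFR1-KO 2 stood above WT 1. Unlike Junb, Ier2 was not highest in WT 1. Its log2 fold change was -0.30 (SE 0.24, 95% interval -0.86 to 0.27), and -0.04 without CRFR1-KO 1.

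Dusp1 (ENSMUSG00000024190; chromosome 17, 26505590 to 26562128), induced by the MAP kinases that it inactivates, had 109 and 99 counts in CRFR1-KO, against 137 and 121 in WT. At 1.63 ± 0.164 CPM in CRFR1-KO and 1.75 ± 0.135 CPM in WT (SD, n = 2 each) the groups overlapped within 1.22-fold. Dusp1 had a log2 fold change of -0.11 (SE 0.33, 95% interval -0.88 to 0.66). Dusp1 thus varied little across libraries in which Jun varied 2.98-fold.

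**Figure D3:**
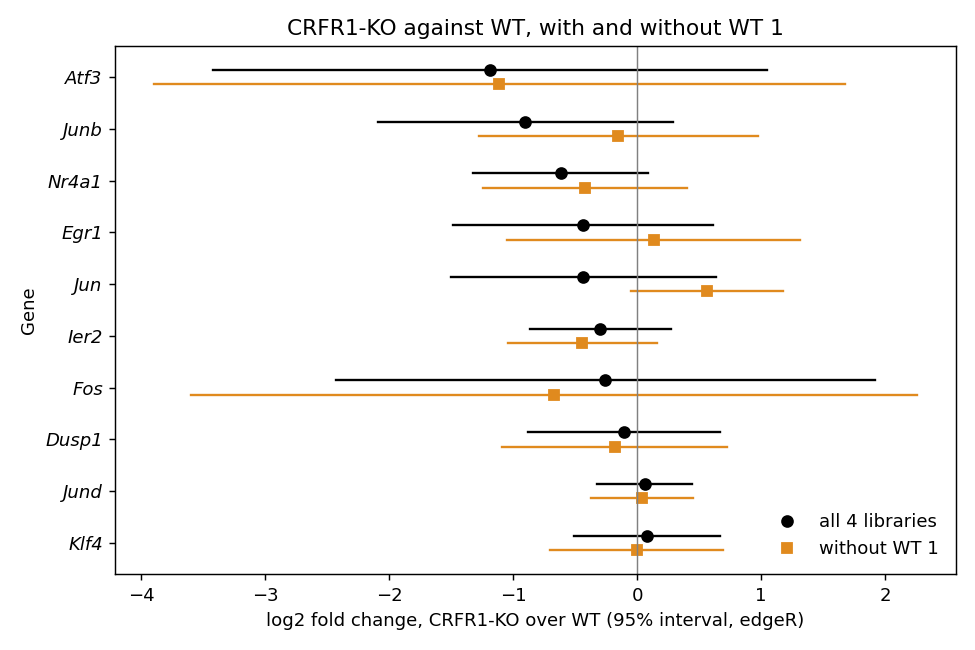
Points are log2 fold changes of CRFR1-KO over WT and lines are 95% intervals from edgeR, in black with all 4 libraries and in orange without WT 1. All 10 intervals cross 0 in both fits, and Jun moves from -0.43 to 0.56 when WT 1 is left out.

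Across libraries, the members did not move as 1 block. WT 1 was the highest library for 5 of 10 members (Jun, Junb, Egr1, Nr4a1 and Atf3), against 26.1% of all tested genes. WT 1 exceeded the mean of the other 3 libraries by 1.17 for Junb, 1.11 for Jun, 0.66 for Egr1, 0.54 for Nr4a1 and 0.42 for Atf3 on the log2(CPM + 0.5) scale. The same difference lay between -0.16 and 0.00 for Fos, Jund, Klf4, Dusp1 and Ier2. Adding 0.5 CPM shrinks the differences of genes at low CPM, such as Fos (0.169 to 0.336 CPM) and Atf3 (0.064 to 0.593 CPM). The range over the 4 libraries had a median of 0.71 over the members and 0.51 over all tested genes. Fibroblast and macrophage marker sums were also highest in WT 1 and islet marker sums lowest there, and their part in the members' levels was not tested.

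Of 27 other immediate early genes listed, 21 passed the count filter. Of the 21, 14 were lower and 7 higher in CRFR1-KO (median log2 fold change -0.18), 0 passed in edgeR and 2 were lower at an unadjusted p under 0.05, where 3.15% of all tested genes were. Without WT 1, 22 were tested, of which 13 were lower and 9 higher (median -0.09). Gadd45b, a stress sensor upstream of p38 and JNK, had 69 and 79 counts in CRFR1-KO, against 257 and 196 in WT. All 4 of its libraries were separated by genotype, with little spread inside either group (log2 fold change -1.40, SE 0.30, edgeR unadjusted p = 0.002125, adjusted p = 0.682), and its size was close without WT 1 (-1.37). Socs3, a feedback inhibitor of cytokine signalling, was at 2.48 and 2.38 CPM in CRFR1-KO, against 5.7 CPM in WT 1 and 2.9 CPM in WT 2. Its log2 fold change of -0.83 (SE 0.35) became -0.25 without WT 1. Ccn1, a matricellular protein gene driven by serum response factor and YAP, had 25 and 13 counts in CRFR1-KO, against 80 and 41 in WT (log2 fold change -1.41, SE 0.67). Ier5 stood at 2.06 and 1.97 CPM in CRFR1-KO, against 3.35 and 2.14 CPM in WT. Klf10, a TGF-beta-induced gene chosen after its values were seen, was like Jun highest in WT 1 and lowest in WT 2, with 119 and 171 counts in CRFR1-KO, against 345 in WT 1 and 76 in WT 2.

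**Figure D4:**
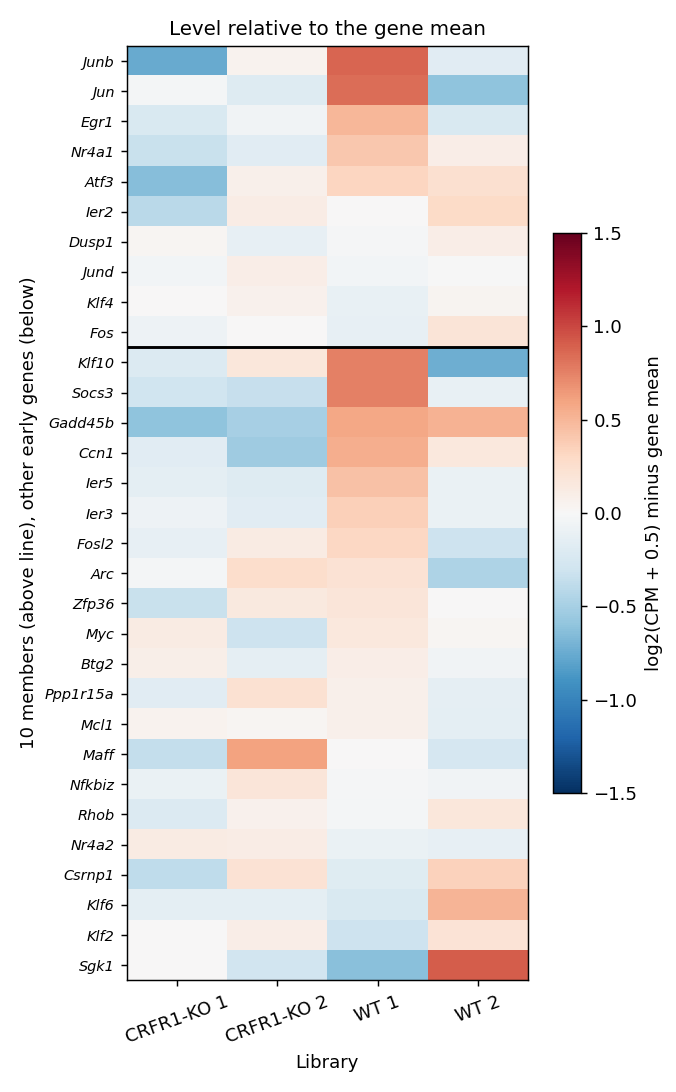
Each cell is a gene's log2(CPM + 0.5) in 1 library minus its mean over the 4 libraries, with the 10 members above the line and the 21 tested other immediate early genes below it, ordered by the excess in WT 1. Junb and Jun are reddest in WT 1, Gadd45b is red in both WT libraries, and Sgk1 is red in WT 2.

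Factors that drive immediate early genes were split evenly in direction. Of 15 such genes, all tested, 8 were lower and 7 higher (median log2 fold change -0.02), with 0 past the threshold and 0 at an unadjusted p under 0.05. Srf, serum response factor itself, stood at 7.7 and 8.0 CPM in CRFR1-KO, against 6.44 and 6.88 CPM in WT (log2 fold change 0.24, SE 0.18). Mrtfa, an actin-regulated partner of Srf, stood at 1.68 and 2.57 CPM in CRFR1-KO, against 3.12 and 3.07 CPM in WT (log2 fold change -0.54, SE 0.31). Elk3, a ternary complex factor, was at -0.37 and Mef2a at -0.28 on the log2 scale. RNA levels of these factors do not measure their activity, which is largely set by phosphorylation and by entry into the nucleus.

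Relatives of the members were counted in the same way. Some of them, such as Fosl2, Nr4a2 and Klf6, were already counted among the other immediate early genes, so the counts are not separate. Of 9 other AP-1 family genes 5 were tested, 3 lower and 2 higher, with Atf2 at -0.20 and Atf7 at 0.12 on the log2 scale. Among Egr and Nr4a relatives 3 of 7 were tested, of which 1 was lower, the Egr corepressor gene Nab2 (log2 fold change -0.52, SE 0.40). Egr2 had 4 and 6 counts in CRFR1-KO, against 17 and 8 in WT, and did not pass the filter. Of 12 other Kruppel-like factors 8 were lower and 4 higher, and without WT 1 6 were lower and 6 higher. Klf6 was at 6.35 and 6.37 CPM in CRFR1-KO, against 5.99 and 10.3 CPM in WT. Of 7 tested MAP kinase phosphatases besides Dusp1, 6 were lower and 1 higher (median -0.29), and without WT 1 5 were lower and 2 higher (median -0.27). Dusp6, the ERK-specific phosphatase, was at 1.57 and 1.53 CPM in CRFR1-KO, against 2.36 and 1.41 CPM in WT. No gene of these 4 lists passed in edgeR, and 0 had an unadjusted p under 0.05.

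Among 8 genes for proteins that bind AU-rich elements, 7 were lower and 1 higher in CRFR1-KO (median -0.10), with 0 past the threshold. Zfp36l2, which promotes decay of such mRNAs, was at 10.5 and 11.4 CPM in CRFR1-KO, against 15.8 and 13.9 CPM in WT (log2 fold change -0.44, SE 0.17, edgeR unadjusted p = 0.0342, adjusted p = 1.0). Zfp36l1, of the same function, was at 11.9 and 9.38 CPM in CRFR1-KO, against 16.0 and 12.4 CPM in WT. Without WT 1, 4 of the 8 were lower. WT 1 was the highest library for 7 of these genes, against 26.1% of all tested genes. Of 8 heat shock genes, also raised by stress, it was the highest for 0. The cause of either count was not tested. Of the 8, 5 were higher and 3 lower (median 0.16), with Hsph1 at 4.46 and 6.28 CPM in CRFR1-KO, against 3.8 and 3.5 CPM in WT (log2 fold change 0.56, SE 0.25), and 0 passed.

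The average pattern of the 10 members, each centred on its mean on the log2(CPM + 0.5) scale, was -0.25 in CRFR1-KO 1, -0.01 in CRFR1-KO 2, 0.26 in WT 1 and close to 0 in WT 2. Of 5831 genes outside the lists with a mean of at least 5 CPM, Brd7, a bromodomain gene, came closest, with a root mean square difference of 0.0115 over the 4 libraries. Mul1 (0.0127), Csk (0.0206) and Cdk6 (0.0207) were also among the 5 closest. With 4 libraries many genes share such a pattern, so the likeness is a description.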

How the data were processed

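Poly(A)-selected RNA from tissue beside Panc02 tumours was sequenced in 2 CRFR1-KO and 2 WT libraries, with a dUTP-marked second strand per the labels' protocols. The authors deposited whole-number counts, 1 row per Ensembl gene. FastQC, DESeq2 and edgeR are named, without roles, per the submitters' processing notes. Which aligner, counter, strand setting, annotation and build were used is not given in the sources used here. Columns were tied to libraries by library name. Symbols, positions and exon lengths are from GENCODE M21 on GRCm38, and promoters from RefSeq on GRCm38.p6.

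The test was the quasi-likelihood F test of edgeR 4.0.16 in R 4.3.3, with genotype as the sole term, default filterByExpr and library sizes scaled by trimmed mean of M values, with Benjamini-Hochberg adjustment over 15131 genes at 0.05. SEs were derived from the F statistic and intervals from its degrees of freedom. Fold changes are CRFR1-KO over WT. With 2 libraries against 2, an exact permutation test cannot go below a two-sided p of 0.333 and was not used. The procedure was tested on simulated data. Alternatives were 3 other scalings, 2 other filters, DESeq2 1.42.0, limma-voom (limma 3.58.1), a replicate block, leaving out acinar and abundant genes, and leaving out each library. Members and lists were chosen with earlier results of these data known. Named genes were all members and, per list, up to 4 tested genes with the smallest p; Klf10, Sgk1, Fosb, Fosl1 and Egr2 lie outside that rule and were named after their values were seen. Likeness was ranked among unlisted genes with at least 5 CPM on average. Of the 5 closest genes, 1 is not reported here. Motifs were chosen after promoters were seen.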

Additional observations from a re-analysis of the deposited data

How the results depend on the processing

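Under all 13 alternatives 0 members passed the adjusted threshold (smallest adjusted p = 0.163, for Jun without WT 2 in edgeR). The number of genes called in CRFR1-KO against WT was 4 with all libraries in edgeR, 60 in DESeq2, 0 in limma-voom and 7 with the replicate block, and lay between 0 and 69 when 1 library was left out. Leaving out WT 2 gave 69, WT 1 40, CRFR1-KO 1 2 and CRFR1-KO 2 0 genes. The single library then left in a genotype is assumed to vary like the pair in the other genotype. In limma-voom 692 genes had an unadjusted p under 0.05. The labels do not say that the replicate numbers pair animals. The deviations of same-numbered libraries had a Pearson's r of -0.0662 across 15131 genes, which does not settle whether they were paired. With the block, as without it, 0 members were called. Junb, Ier2 and Nr4a1 had the same sign under all 13 alternatives, and Atf3 under each in which it was tested.

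On library totals, which moved the median of all genes to -0.13 from -0.01 on the log2 scale, Jund was at -0.0596 and Klf4 at -0.0347, so that all 10 members were lower. Leaving out each library in turn, the log2 fold change lay between -1.01 and 0.562 for Jun, -0.833 and 0.135 for Egr1, -0.668 and 0.316 for Fos, -0.211 and 0.0022 for Dusp1, -0.0028 and 0.131 for Jund, and -0.0029 and 0.174 for Klf4; the cause was not tested. With at least 1 CPM in 2 libraries, Fos and Atf3 could not be tested. Counting error is wide for Fos, with 12 to 22 counts per library.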
